A study of Mus musculus with 9 samples.

Results

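The genes described here are Atf4, Ddit3, Atf3, Atf5, Cebpb, Cebpg, Trib3, Ppp1r15a, Chac1 and Sesn2, a set of transcription factors, feedback regulators and effector genes of the ATF4 and CHOP branch of the cellular stress response. They were picked by gene symbol from the deposited count table, with earlier results of these data known. All 10 were among its 16398 genes, and all 10 passed the low-count filter that left 11739 genes for testing. The control libraries alone were enough for that, since Chac1, the member with the fewest reads, had 100, 171 and 145 counts there.

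Libraries of mRNA were made from BV2 cells, a mouse microglial line kept as an immortal culture, and the 9 of them form 3 groups of 3. The control group, NC, is labelled wild type, and the siRNA groups are labelled Nus1 knockdown and carry either siRNA 644 or siRNA 878. The labels give 1 transfection scheme for all samples, with siRNA and RNAiMAX for 24 h, a change to fresh medium, and harvest 48 h after the start. They do not say whether the control cells received a control siRNA or none. The protein made from Nus1 is needed by the cis-prenyltransferase of the ER for building dolichol, the lipid carrier of protein N-glycosylation. The labels call the replicates biological without saying that they came from separate transfections, so every p-value here speaks for the spread between these libraries alone, and all groups come from 1 cell line.

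ATF4 is a basic leucine zipper (bZIP) transcription factor whose mRNA is translated preferentially when the initiation factor eIF2 is phosphorylated by one of its stress kinases, among them PERK in the endoplasmic reticulum (ER), GCN2 on amino acid shortage, PKR and HRI. ATF4 raises transcription of Ddit3, which encodes CHOP, and the 2 factors then act together or with C/EBP partners on genes of amino acid supply, redox balance and cell death. The response also carries its own brakes: GADD34, the product of Ppp1r15a, directs protein phosphatase 1 to eIF2, and TRIB3 binds ATF4 and CHOP and limits their activity.

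ATF4 and its C/EBP partners bind composite C/EBP-ATF response elements with the core TGATGNAA. The RefSeq promoter windows of the members, 300 bases each in the GRCm38.p6 build (250 before to 50 after the start), were searched on both strands for this core, for the cAMP response element TGACGTCA, which bZIP factors of the ATF family bind, and for the ER stress response element (CCAAT and CCACG with 9 bases between). The composite core was found in 3 of the 10 members, Atf3, Trib3 and Chac1, against 3.97% of 32851 promoter windows. The cAMP element was found in Ppp1r15a alone, against 1.79% of windows, and the ER stress element in 0 members, against 0.119% of windows. The windows of these 4 genes are shown from 250 bases before to 30 bases after the start, 5′ to 3′ on the gene's strand, with the match in capitals. In the first 3 the core lies on the opposite strand, so that it reads as its reverse complement.
Trib3, chr2:152344031-152344310, minus strand: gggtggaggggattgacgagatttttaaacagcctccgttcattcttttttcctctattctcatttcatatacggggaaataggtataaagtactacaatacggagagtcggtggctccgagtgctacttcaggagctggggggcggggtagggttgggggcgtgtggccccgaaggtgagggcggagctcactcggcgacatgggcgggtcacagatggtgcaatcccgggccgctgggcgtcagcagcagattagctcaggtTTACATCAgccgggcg
Chac1, chr2:119350992-119351271, plus strand: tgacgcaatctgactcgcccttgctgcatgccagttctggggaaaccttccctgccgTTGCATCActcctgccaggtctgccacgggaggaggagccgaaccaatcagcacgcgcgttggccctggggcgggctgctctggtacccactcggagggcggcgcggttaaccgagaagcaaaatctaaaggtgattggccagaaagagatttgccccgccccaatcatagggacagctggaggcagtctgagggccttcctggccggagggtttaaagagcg
Atf3, chr1:191183304-191183583, minus strand: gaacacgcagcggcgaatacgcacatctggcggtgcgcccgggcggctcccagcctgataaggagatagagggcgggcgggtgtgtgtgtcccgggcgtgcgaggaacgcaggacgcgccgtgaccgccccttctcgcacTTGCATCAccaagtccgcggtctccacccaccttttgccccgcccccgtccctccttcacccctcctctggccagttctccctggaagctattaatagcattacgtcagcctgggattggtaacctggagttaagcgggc
Ppp1r15a, chr7:45526239-45526518, minus strand: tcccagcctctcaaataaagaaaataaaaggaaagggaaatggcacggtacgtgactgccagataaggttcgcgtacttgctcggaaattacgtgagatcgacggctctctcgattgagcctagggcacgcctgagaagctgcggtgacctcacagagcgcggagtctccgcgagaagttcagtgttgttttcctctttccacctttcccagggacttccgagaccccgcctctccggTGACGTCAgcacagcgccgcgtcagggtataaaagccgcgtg
The match lies at positions 15 to 22 after the start in Trib3, at -193 to -186 in Chac1, at -110 to -103 in Atf3 and at -12 to -5 in Ppp1r15a. A match is a string of letters and not a mapped binding site, and the other 6 members may hold such elements outside these windows. The 4 genes with a match differed widely in response, from Trib3, at 9.46 and 8.60 times control with siRNAs 644 and 878, to Atf3, at 1.54 and 1.17 times control.

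The libraries held 19362292 to 20224686 estimated counts. Nus1 was lower in each of the 6 knockdown libraries than in each control library, with a log2 fold change of -3.74 for siRNA 644 and -2.94 for siRNA 878. Replicate 2 of siRNA 878 stood apart from its group. Its chi-square per degree of freedom over genes was 76.5 and 111 against the other 878 libraries, while all other pairs of a group gave 3.42 to 29.6, and its TMM factor was 0.898 against 0.966 to 1.04 elsewhere. Its Nus1 level was 3.73 CPM, against 8.01 and 8.35 CPM in replicates 1 and 3, where CPM is the estimated count scaled to the TMM-adjusted total of its library. Some results for siRNA 878 are therefore also given without that library. Of 14 microglia and macrophage markers in the table, 12 had at least 10 counts in each library, while P2ry12 (6 to 34 counts) and Sall1 (0 to 3 counts), markers of microglia in tissue, were low. The summed microglial marker level was 3414 to 3777 CPM in control, 3636 to 3947 CPM with siRNA 644 and 2968 to 3927 CPM with siRNA 878. Of 17 markers of other cell types, 2 reached 10 counts in each library, and that list summed to at most 6.97 CPM in any library, with 0 of the 17 at 0 in all libraries. In bulk RNA a change in the share of cells in some state and a change in RNA per cell cannot be told apart.

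The set as a whole took up 857 to 957 CPM of the control libraries, 2350 to 2744 CPM with siRNA 644 and 2080 to 2659 CPM with siRNA 878. With siRNA 644 all 10 members were called higher than control, and with siRNA 878 8 of 10 were, by edgeR's quasi-likelihood test at a Benjamini-Hochberg adjusted p under 0.05 over all genes tested. Among all 11739 genes the same rule called 16.6% higher and 15.0% lower with siRNA 644, and 16.0% higher and 15.5% lower with siRNA 878. Since the members were chosen with earlier results of these data known, these shares describe the set and do not test it. Each library of either siRNA lay above each control library for all 10 members, a pattern seen in 28.0% of genes for siRNA 644 and 22.5% for siRNA 878. The median log2 fold change of the members was 1.36 with siRNA 644 and 1.09 with siRNA 878, beside -0.01 and 0.00 over all genes. The members form a group that rose about 6-fold or more (Ddit3, Trib3, Ppp1r15a and Atf5), a group near 2-fold (Sesn2, Chac1, Atf4 and Cebpg) and the least changed pair, Atf3 and Cebpb. Without replicate 2 of siRNA 878 the counts were 10 and 9, the added call being Cebpb, while the share of all genes called higher also grew, to 25.3% and 20.4%. In a fit corrected for the GC content and length of transcripts, chosen after seeing the data, the count for siRNA 644 was 9, against 21.5% of all genes, the lost call again being Cebpb.

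**Figure D1:**
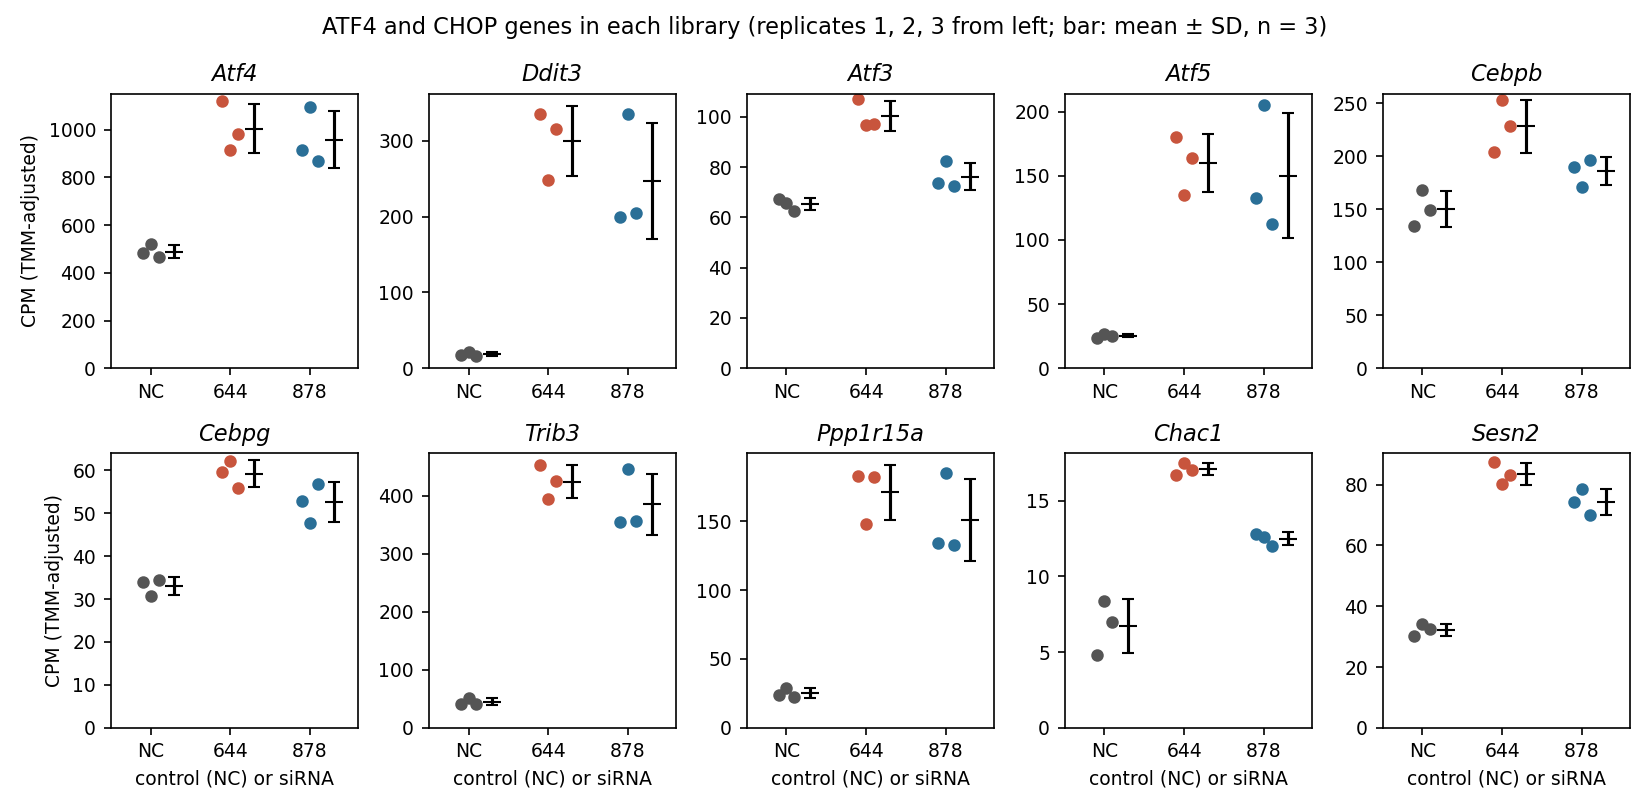
Level of each of the 10 genes in CPM (linear axis from 0, its own scale per gene) in the 3 control, 3 siRNA 644 and 3 siRNA 878 libraries, with points for replicates 1 to 3 from the left and the mean ± SD beside them. Each knockdown library lies above each control library for all 10 genes, and the siRNA 878 points of Ddit3 and Atf5 are spread widely, with CVs of 30.9% and 32.6%.

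Atf4 itself about doubled. Its level was 482, 520.0 and 465 CPM in control replicates 1, 2 and 3, 1119, 914 and 982 CPM with siRNA 644, and 913, 1096 and 867 CPM with siRNA 878. The lowest knockdown library was well above the highest control library, and the siRNA groups overlapped. The means were 489 ± 28.0, 1005 ± 104 and 959 ± 121 CPM (SD, n = 3 each), ratios to control of 2.06 and 1.96. The log2 fold change was 1.04 (SE 0.115, edgeR adjusted p = 0.000246) with siRNA 644 and 0.97 (SE 0.115, edgeR adjusted p = 0.000342) with siRNA 878. These are mRNA levels, and the translational step at which ATF4 is best known to be controlled was not measured.

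Ddit3, the gene of CHOP, had the largest fold change of the set with both siRNAs. It was at 17.7, 22.1 and 16.5 CPM in control, at 336, 248 and 316 CPM with siRNA 644 and at 199.9, 335 and 205 CPM with siRNA 878. Control was uniformly low, and within siRNA 878 replicate 2 was the high library, level with the top of the 644 group. The means rose from 18.8 ± 2.99 CPM to 299.9 ± 46.2 and 247 ± 76.3 CPM (SD, n = 3 each), which is 16.0 and 13.2 times control. The log2 fold change of 4.0 with siRNA 644 (SE 0.243, edgeR adjusted p = 1.10e-05) was in rank 33 of the 11739 genes ordered by fold change, and that of 3.72 with siRNA 878 (SE 0.240, edgeR adjusted p = 1.46e-05) was in rank 30. Without replicate 2 of siRNA 878 the latter was 3.44.

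Atf5, a bZIP factor related to ATF4 that is also under translational control and a CHOP target, followed Ddit3 in spread. It was at 23.9, 26.8 and 25.5 CPM in control, at 179.8, 135 and 164 CPM with siRNA 644, and at 133, 205 and 112 CPM with siRNA 878. Replicate 2 of siRNA 878 was the highest of the 9 libraries and replicate 3 of the same group the lowest of the knockdown libraries, so the siRNA groups overlapped. Atf5 rose by a log2 fold change of 2.65 (SE 0.221, edgeR adjusted p = 5.20e-05) with siRNA 644 and 2.56 (SE 0.220, edgeR adjusted p = 6.54e-05) with siRNA 878, or 2.28 without that library.

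Atf3, a stress-inducible bZIP factor that ATF4 and many other signals induce, rose little. It was at 67.3, 65.7 and 62.6 CPM in control, at 107, 96.5 and 97 CPM with siRNA 644, and at 73.7, 82.3 and 72.4 CPM with siRNA 878. The 3 groups did not overlap, with siRNA 878 between the others. Its log2 fold change was 0.62 with siRNA 644 (SE 0.0817, edgeR adjusted p = 0.000630). With siRNA 878 it was 0.22 (95% interval 0.04 to 0.41), which missed the threshold (edgeR adjusted p = 0.0668) and passed it with DESeq2 (log2 fold change 0.22, adjusted p = 0.0309), which called 17.5% of all genes higher.

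The C/EBP members also had small folds. Cebpb encodes a C/EBP factor that pairs with CHOP and acts on inflammatory genes of macrophages, and Cebpg encodes a short C/EBP protein that forms dimers with ATF4. Cebpb was at 134, 168 and 149 CPM in control, 204, 253 and 228 CPM with siRNA 644, and 189.5, 171 and 196 CPM with siRNA 878. Its highest control library was only just below its lowest 878 library. The log2 fold change was 0.60 (SE 0.112, edgeR adjusted p = 0.00370) with siRNA 644 and 0.31 (95% interval 0.05 to 0.56, edgeR adjusted p = 0.0664) with siRNA 878. The call for siRNA 644 was lost with the GC and length offsets (0.37, edgeR adjusted p = 0.179), and the value for siRNA 878 was called without its replicate 2 (0.37, edgeR adjusted p = 0.0257). Of the 10 member transcripts, that of Cebpb had the highest GC content, 67.2%.

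Cebpg was at 34.0, 30.7 and 34.4 CPM in control, 59.6, 62.1 and 55.8 CPM with siRNA 644, and 52.9, 47.6 and 56.9 CPM with siRNA 878. All knockdown libraries were clear of control, and the siRNA groups overlapped at their edges. It rose by a log2 fold change of 0.84 (SE 0.0940, edgeR adjusted p = 0.000257) and 0.67 (SE 0.0940, edgeR adjusted p = 0.000854).

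Both feedback genes rose strongly. Trib3, the pseudokinase that binds ATF4 and CHOP, was at 41.5, 51.8 and 41.1 CPM in control, 452, 395 and 425 CPM with siRNA 644, and 354, 446 and 356 CPM with siRNA 878. The groups were far apart from control and overlapped each other through replicate 2 of siRNA 878. The means of 44.8 ± 6.08, 424 ± 28.6 and 385 ± 52.6 CPM (SD, n = 3 each) correspond to 9.46 and 8.60 times control. The log2 fold changes were 3.24 (SE 0.136, edgeR adjusted p = 1.51e-06) and 3.10 (SE 0.136, edgeR adjusted p = 1.97e-06), the smallest adjusted p of the members in each comparison.

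Ppp1r15a, which encodes the stress-inducible eIF2 phosphatase subunit GADD34, was at 23.7, 29.1 and 22.5 CPM in control, 183, 148 and 182 CPM with siRNA 644, and 134, 185 and 133 CPM with siRNA 878. Replicate 2 was low within siRNA 644 and high within siRNA 878, and no knockdown library came near control. The log2 fold change was 2.77 (SE 0.170, edgeR adjusted p = 1.10e-05) and 2.58 (SE 0.169, edgeR adjusted p = 1.49e-05). Its constitutive paralog Ppp1r15b, which encodes CReP, was at 88.0 ± 4.64, 75 ± 4.59 and 95.2 ± 16.4 CPM (SD, n = 3 each) and was not called with either siRNA (log2 fold change -0.23 and 0.11).

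The effector genes Chac1 and Sesn2 rose about 2-fold. Chac1, whose enzyme degrades glutathione, was the least abundant member. It was at 4.80, 8.39 and 6.98 CPM in control, 16.7, 17.5 and 17.0 CPM with siRNA 644, and 12.8, 12.6 and 12 CPM with siRNA 878. The siRNA groups were tight and did not overlap, while control varied most, with a CV of 26.9%. Chac1 had a log2 fold change of 1.35 (SE 0.175, edgeR adjusted p = 0.000575) with siRNA 644 and 0.89 (SE 0.175, edgeR adjusted p = 0.00492) with siRNA 878.

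Sesn2, whose product senses leucine and restrains the growth kinase complex mTORC1, was at 30.2, 34.1 and 32.6 CPM in control, 87.5, 80.2 and 83.2 CPM with siRNA 644, and 74.2, 78.5 and 70.1 CPM with siRNA 878. Replicates were close together in each group, and siRNA 878 lay just below siRNA 644. Sesn2 rose by a log2 fold change of 1.37 (SE 0.0824, edgeR adjusted p = 1.10e-05) and 1.2 (SE 0.0822, edgeR adjusted p = 2.03e-05).

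**Figure D2:**
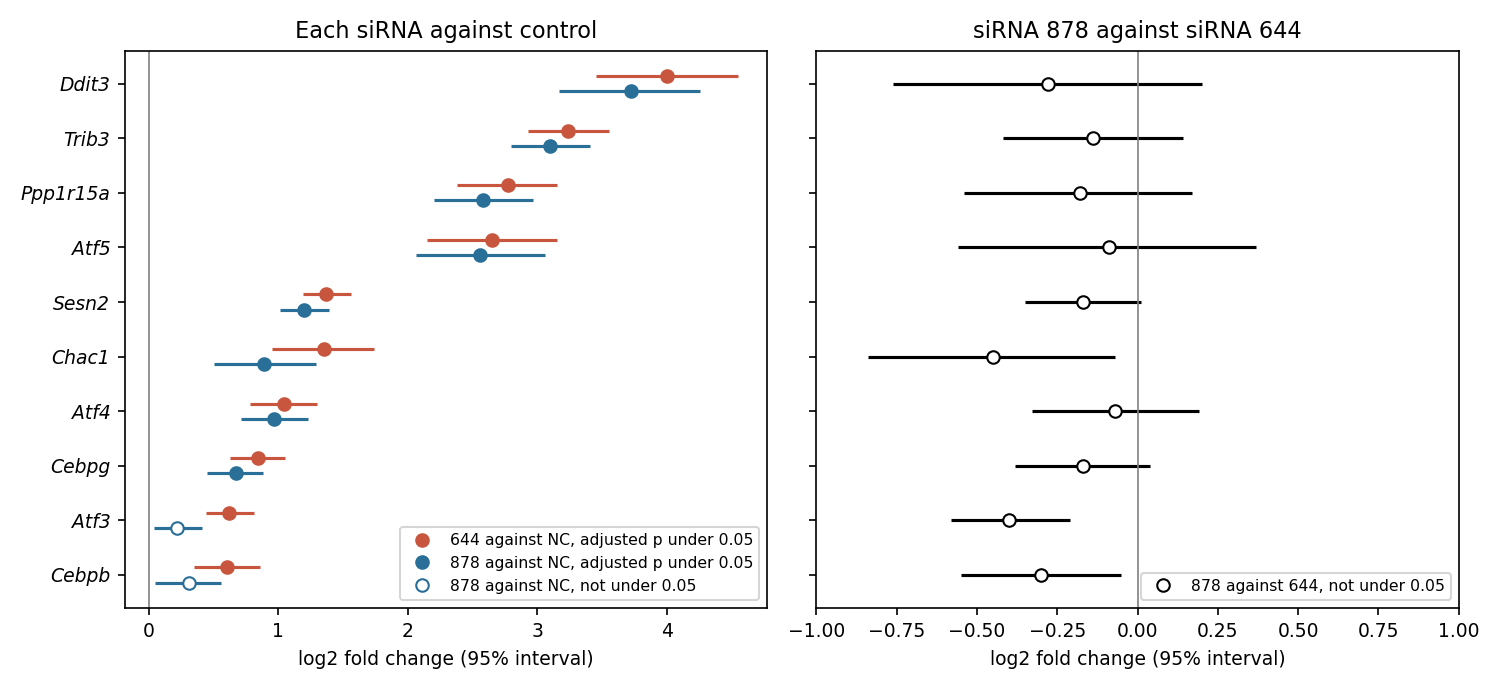
Log2 fold change with its 95% interval from edgeR for the 10 genes, each siRNA against control on the left and siRNA 878 against siRNA 644 on the right, where filled points have an adjusted p under 0.05. Only Atf3 and Cebpb with siRNA 878 are open on the left (0.22 and 0.31), and on the right all 10 points are open and lie between -0.45 and -0.07.

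In the authors' deposited table q was under 0.05 against control for 10 members with siRNA 644 and 8 with siRNA 878, beside 16.0% and 10.0% of all genes with a q-value in the higher direction. The counts of some members could be touched by a neighbour on the opposite strand, because the strand setting of the counting is not given in the sources used here. In the GENCODE vM21 annotation Cebpb shares 908 bases with Tmem189 (277 to 241 and 215 CPM on average), Atf5 shares 571 bases with Nup62 (146 to 184 and 186 CPM), and Ddit3 shares 71 bases with Mars1 (162 to 134 and 119 CPM). Atf5 also shares 272 bases with Il4i1, whose level is not reported here. The partners of Ppp1r15a and Cebpg, Tulp2 and Gm45095, averaged at most 0.544 and 0.505 CPM. Reads from such pairs cannot be told apart without strand. Sesn2 is listed on the plus strand in the deposited table and on the minus strand, with another start, in RefSeq of GRCm38.p6, and what this does to its counts was not tested.

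Because longer transcripts yield more reads, levels of different genes are given here in the authors' FPKM, which scale by gene length. Atf4 was the most abundant member in all 3 groups, with 334 ± 16.6 FPKM in control, 670.2 ± 48.0 with siRNA 644 and 622 ± 40.7 with siRNA 878 (SD, n = 3 each). It already stood in the top 1.56% of all genes in control. In control Ddit3 ranked behind Atf4, Cebpb, Atf3 and Trib3 with 20.7 ± 3.65 FPKM, and 24.4% of all genes were more abundant. With siRNA 644 it reached 346 ± 41.8 FPKM and with siRNA 878 279 ± 65.6 FPKM, next to Atf4 in rank, with 1.52% and 1.87% of genes above it. In control the order from high to low was Atf4, Cebpb, Atf3, Trib3, Ddit3, Atf5, Sesn2, Ppp1r15a, Cebpg and Chac1, and in both knockdown groups it was Atf4, Ddit3, Trib3, Cebpb, Atf5, Ppp1r15a, Atf3, Sesn2, Cebpg and Chac1. Some neighbours in that order did not differ beyond their spread. In control Trib3 (21.32 to 26.08 FPKM) and Ddit3 (17.89 to 24.79 FPKM) overlapped, as did Sesn2 (12.04 to 13.17 FPKM) and Ppp1r15a (10.24 to 12.84 FPKM). With siRNA 644 Cebpg (11.84 to 13.87 FPKM) overlapped Chac1 (10.63 to 11.98 FPKM), and with siRNA 878 Atf5 (67.77 to 109.08 FPKM) overlapped Ppp1r15a (59.04 to 72.74 FPKM) and Cebpb (104.67 to 136.65 FPKM).

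**Figure D3:**
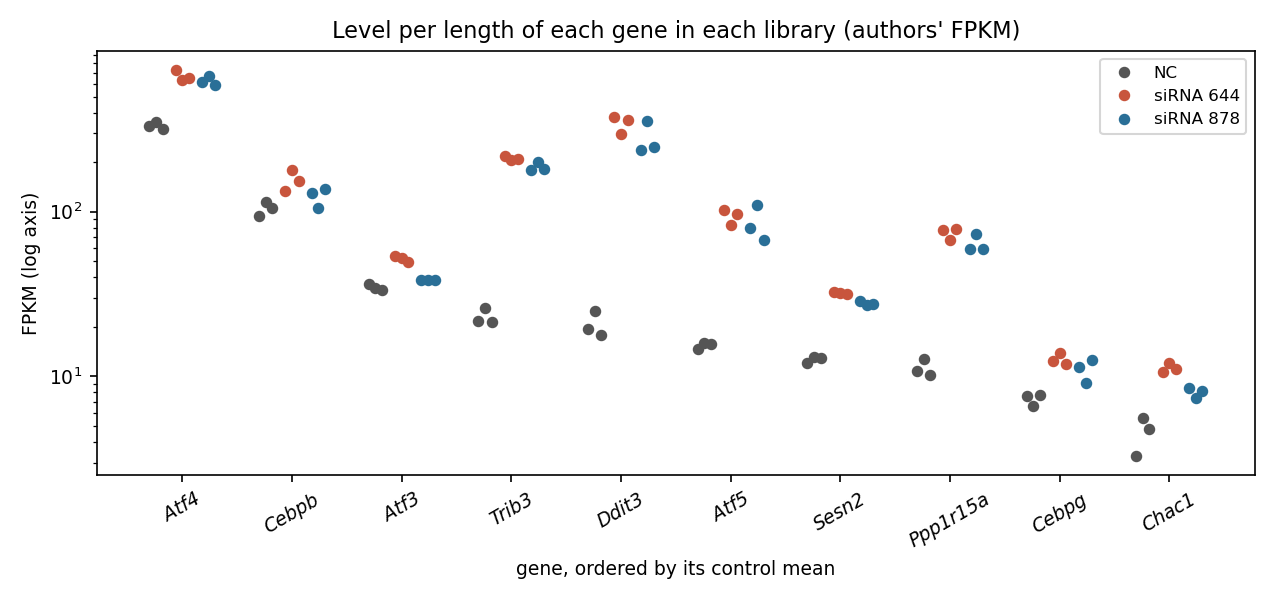
The authors' FPKM of each gene in each library on a log axis, ordered by control mean, with control, siRNA 644 and siRNA 878 side by side. Ddit3 moves from the fifth place in control (20.7 FPKM on average) to the place behind Atf4 with both siRNAs (346 and 279 FPKM), and Trib3 goes from 23.0 to 211 and 187 FPKM.

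Set against Atf4 in the same library, Ddit3 and Trib3 rose and Atf3 fell. The FPKM ratio of Ddit3 to Atf4 was 0.0615 ± 0.00780 in control, 0.515 ± 0.0424 with siRNA 644 and 0.445 ± 0.0755 with siRNA 878 (SD, n = 3 each), and the ranges of control and knockdown did not overlap. The ratio of Trib3 to Atf4 went from 0.0687 ± 0.00486 to 0.315 ± 0.0125 and 0.300 ± 0.00854, with little spread in either siRNA group. Atf3 moved the other way relative to Atf4, from 0.104 ± 0.00600 to 0.0775 ± 0.00407 and 0.0619 ± 0.00407, since its own rise was smaller. The balance of the eIF2 phosphatase subunits also turned over: the FPKM ratio of Ppp1r15a to Ppp1r15b was 0.637, 0.855 and 0.601 in control, 6.31, 4.52 and 5.88 with siRNA 644, and 3.31, 5.80 and 2.93 with siRNA 878. The constitutive form was thus the more abundant transcript in each control library and the inducible form in each knockdown library. Cebpg to Cebpb changed little, from 0.0703 ± 0.0115 to 0.0823 ± 0.00874 and 0.0892 ± 0.00220, with overlap between control and siRNA 644. No test was run on these ratios.

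The siRNAs were compared directly for each member. The mean level with siRNA 878 was below that with siRNA 644 for all 10, at 73.0% (Chac1) to 95.4% (Atf4) of it, while 47.1% of all genes had a lower mean with siRNA 878. For Atf4 and Atf5 the direction hung on single libraries. With 1 library left out, the edgeR log2 difference was -0.16 to 0.02 for Atf4 and -0.37 to 0.08 for Atf5. In the edgeR test of the difference 0 of 10 members were called at an adjusted p under 0.05, against 1.51% of all genes in either direction. At an unadjusted p under 0.05, which 8.83% of all genes passed in the lower direction, 3 members were lower with siRNA 878: Atf3 (log2 difference -0.40, 95% interval -0.58 to -0.21), Chac1 (-0.45, -0.84 to -0.07) and Cebpb (-0.30, -0.55 to -0.05), with edgeR adjusted p of 0.0529, 0.241 and 0.239. These 3 and Sesn2 were the members whose 878 libraries all lay below all 644 libraries, which held for 10.6% of genes. The strongly rising genes had wide intervals of the difference: Ddit3 -0.28 (-0.76 to 0.20), Atf5 -0.09 (-0.56 to 0.37) and Ppp1r15a -0.18 (-0.54 to 0.17). A missed threshold does not show that the siRNAs acted alike on them.

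Atf3 was close to the threshold and went past it in 9 of 21 alternative settings, DESeq2 among them (-0.39, adjusted p = 0.000237). DESeq2 called Atf3 alone among the members, and 3.25% of all genes, lower with siRNA 878. In the authors' deposited table Atf3 (log2 fold change -0.38, q = 0.0314) and Chac1 (-0.44, q = 0.0473) had q under 0.05 between the siRNAs, and 1.61% of 15867 genes with a q-value did. Without replicate 2 of siRNA 878, edgeR called Atf3 (-0.45, adjusted p = 0.00695) and Ddit3 (-0.55, adjusted p = 0.0278) lower with siRNA 878, as it did 9.26% of all genes in that fit, and the log2 differences of Atf5, Ppp1r15a and Trib3 widened to -0.37, -0.35 and -0.25. The mean level of Nus1 left was 3.85 ± 0.351 CPM with siRNA 644 and 6.70 ± 2.58 CPM with siRNA 878 (SD, n = 3 each). That difference was not called (log2 difference 0.80, edgeR adjusted p = 0.180). The groups overlapped, with replicate 2 of siRNA 878 at 3.73 CPM and the 644 libraries at 3.46 to 4.15 CPM. The part of the Nus1 level in the members' differences was not tested.

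The libraries of a group did not vary alike for all members. In replicate 2 of siRNA 878 the log2 CPM was above the group mean by 0.50 for Atf5, 0.48 for Ddit3, 0.32 for Ppp1r15a, 0.22 for Trib3 and 0.20 for Atf4, while Nus1 was 0.74 below its group mean. Chac1 was at its group mean there (0.01), and Cebpb and Cebpg were lower, at -0.11 and -0.14. In replicate 2 of siRNA 644 the same 5 genes were below their group mean, with -0.26 for Ddit3, -0.23 for Atf5, -0.20 for Ppp1r15a, -0.13 for Atf4 and -0.10 for Trib3, and Nus1 was at 0.11. Atf3 and Sesn2 lay on the same side as these 5 in both libraries, by less (0.11 and 0.08 in the first, -0.05 and -0.06 in the second). Cebpb was higher in that library, by 0.15. Among the controls replicate 2 was the highest library for 8 members, all but Atf3 and Cebpg, with 0.35 for Chac1, 0.25 for Ddit3, 0.22 for Trib3 and for Ppp1r15a, and 0.17 for Cebpb. Ddit3, Atf5, Ppp1r15a, Trib3, Atf4, Atf3 and Sesn2 thus lay on the same side of their group means within each replicate 2 library, while Cebpg lay on the other side in all 3. These are single libraries, and no test was run.

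**Figure D4:**
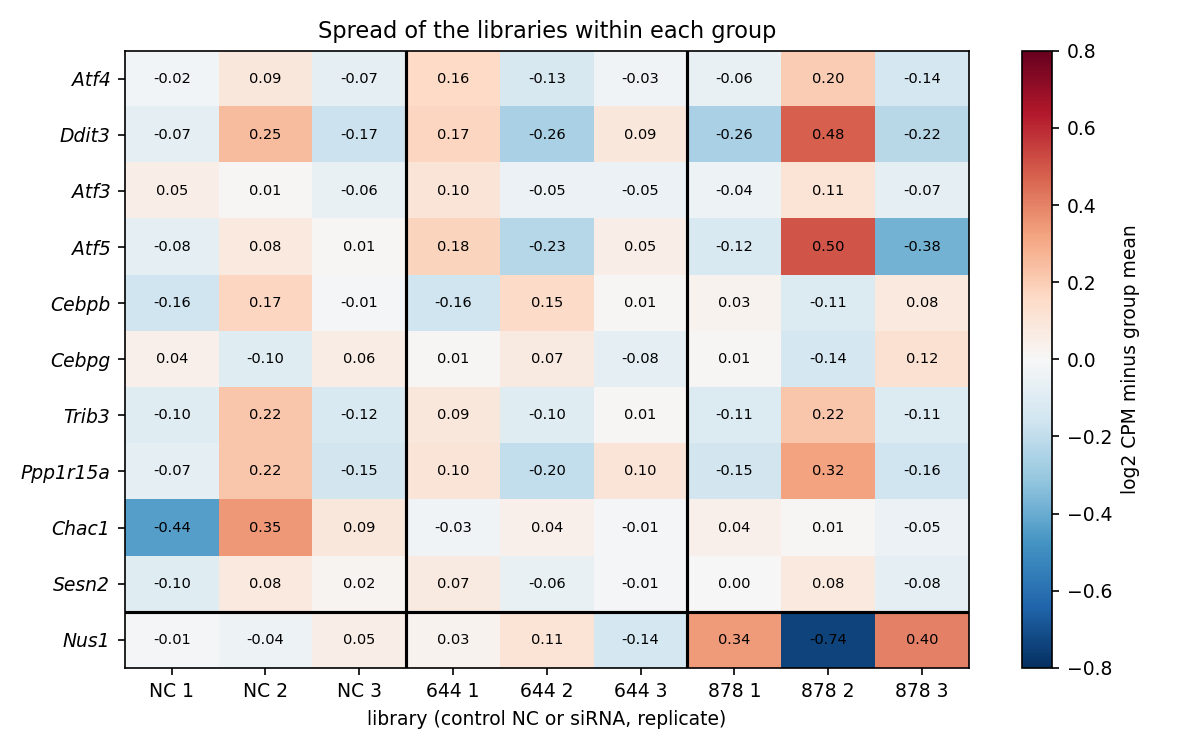
Log2 CPM of each library minus the mean of its group, for the 10 genes and Nus1 in the bottom row, with red for above and blue for below the group mean. In the column of siRNA 878 replicate 2, Ddit3 and Atf5 are at 0.48 and 0.50 and Nus1 at -0.74, whereas Cebpb and Cebpg are at -0.11 and -0.14.

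The genes upstream, which encode the eIF2 kinases, eIF2 and its phosphatase and exchange factor, were mostly not called, which also held for all genes. Of the 11739 genes tested, 8029 were not called with siRNA 644 and 8043 with siRNA 878. The shares called over all genes were 16.6% higher and 15.0% lower with siRNA 644, and 16.0% and 15.5% with siRNA 878. Of 17 such genes tested, 1 was called higher and 3 lower with siRNA 644, and 2 higher and 2 lower with siRNA 878, with medians of -0.21 and -0.02. The gene called higher with both siRNAs was Dnajc3 (log2 fold change 2.16 and 2.41), an ER co-chaperone that is known as an inhibitor of eIF2 kinases. Eif2b2, a subunit of the exchange factor, had 0.48 with siRNA 644 and 0.56 with siRNA 878, where it was called, a call lost in 4 of 21 alternatives. Of the kinases, Eif2ak2, which encodes the RNA-activated PKR, fell by 0.80 and by 0.69 on the log2 scale. Eif2ak3 (PERK) had log2 fold changes of 0.49 and 0.68, Eif2ak4 (GCN2) of -0.55 and -0.35, and Eif2ak1 (HRI) of 0.00 and 0.22, none of them called. For Eif2ak3 the edgeR adjusted p was 0.150 and 0.0588. It was at 16.5 to 18.2 CPM in control and at 20.1 to 29.9 CPM with siRNA 644. With siRNA 878 it was at 32.4 and 34.1 CPM in replicates 1 and 3, and at 17.7 CPM in replicate 2, the library that stood apart. A missed threshold does not show that these kinase genes were unchanged, and whether an alternative setting called them is not reported here. Ppp1cc, a catalytic subunit of protein phosphatase 1, fell by 0.51 and 0.60, and Eif2s3x, a subunit of eIF2, had -0.67 with siRNA 644, a call lost in 9 of 21 alternatives, and -0.16 with siRNA 878. Kinase activity and eIF2 phosphorylation were not measured.

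Other genes listed as targets of ATF4 or CHOP mostly moved with the members. Of 37 tested, 24 were called higher and 3 lower with siRNA 644, and 25 higher and 2 lower with siRNA 878; 23 were higher and 2 lower with both. Over all genes 16.6% were called higher and 15.0% lower with siRNA 644, and 16.0% and 15.5% with siRNA 878. The medians of the 37 targets were 0.59 and 0.53. This list too was chosen with earlier results of these data known, so its counts are a description. The largest rises were those of Herpud1, an ER-associated degradation component (2.93 and 2.52), Slc6a9, a glycine transporter (2.22 and 2.14), and Wars, the tryptophanyl-tRNA synthetase (1.78 and 1.46). Ddit4, an inhibitor of mTORC1 that ATF4 is known to induce, fell by 0.96 and by 0.73, and Bcl2l11, the gene of the death factor BIM, fell by 0.58 and by 0.41. Klhl24 had -0.55 with siRNA 644, a call lost in 14 of 21 alternatives, and -0.42 with siRNA 878.

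Among 38 other bZIP factor genes tested, 11 were called higher and 3 lower with siRNA 644, beside 16.6% and 15.0% of all genes. With siRNA 878 10 were called higher and 4 lower, beside 16.0% and 15.5%. The medians of these 38 were 0.17 and 0.11. Fosl1, an AP-1 member, rose by 1.71 with siRNA 644 and by 0.49 with siRNA 878. Bach2, a transcriptional repressor (1.56 and 1.36), and Creb3l4, an ER-anchored factor (1.25 and 1.45), also rose. Fos (-1.24 and -1.65) and Crem (-0.93 and -1.11) fell with both. Of 5 paralogs of the feedback and effector genes tested, 0 were called higher, beside 16.6% and 16.0% of all genes. With so few genes that count says little. The number called lower was 3 with siRNA 644 and 2 with siRNA 878, beside 15.0% and 15.5% of all genes. Trib1, which promotes C/EBP degradation, fell by 0.70 and by 0.95, and Chac2 fell by 1.05 and by 0.97. Sesn1, a p53 target, had -0.61 with siRNA 644, a call lost in 11 of 21 alternatives, and -0.32 with siRNA 878, and Trib2 had 0.23 and 0.09 with no call.

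**Figure D5:**
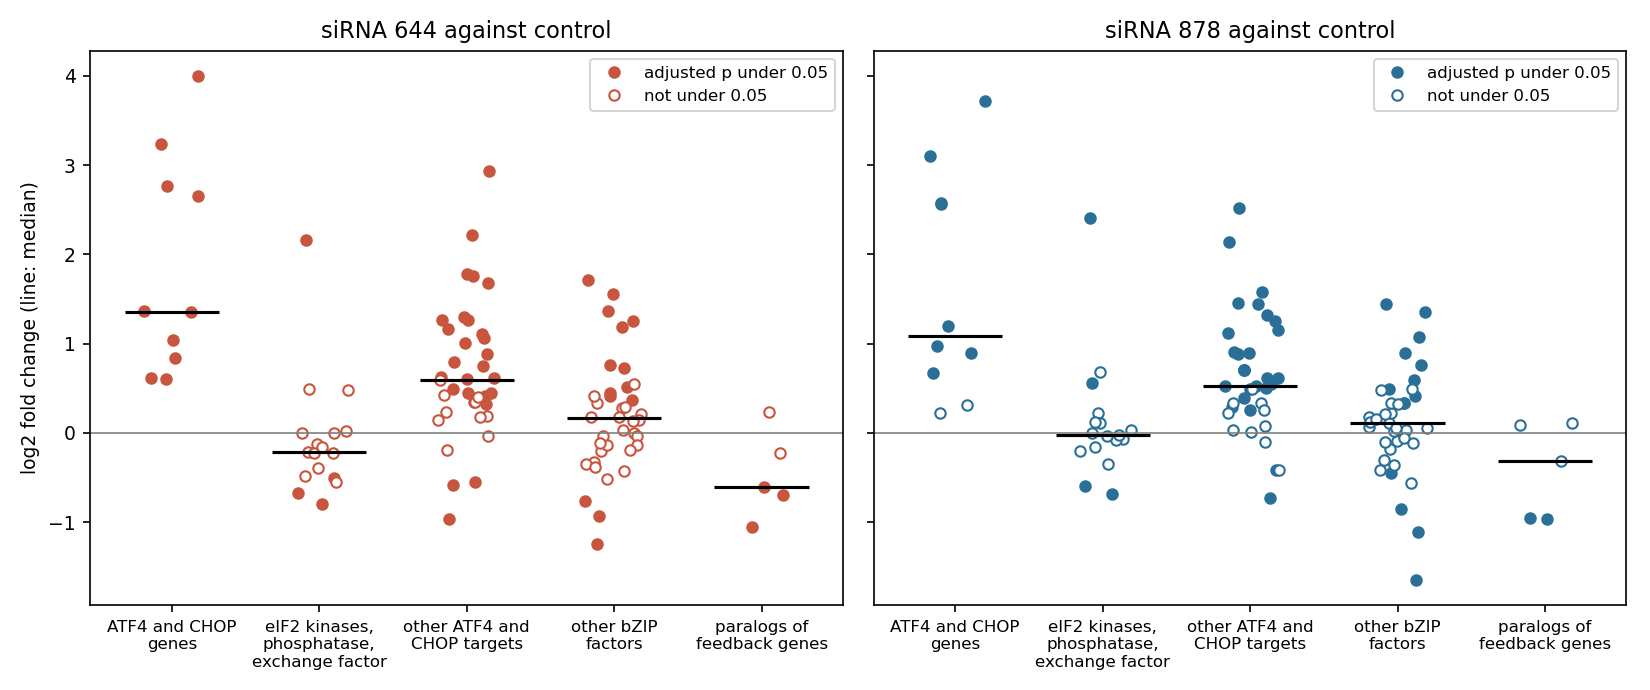
Log2 fold change against control of each tested gene of the set and of 4 related lists, siRNA 644 on the left and siRNA 878 on the right, with filled points for an adjusted p under 0.05 and a line at the median. The 10 genes have medians of 1.36 and 1.09, the other targets 0.59 and 0.53, and the eIF2 genes and the paralogs have medians below 0 (-0.21 and -0.61 with siRNA 644, -0.02 and -0.32 with siRNA 878).

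Of 13 microglia and macrophage markers tested, 1 was called higher and 3 lower with siRNA 644, and 1 higher and 5 lower with siRNA 878. Both for this list and for the markers of other cell types, the shares over all genes were 16.6% higher and 15.0% lower with siRNA 644. With siRNA 878 these shares were 16.0% and 15.5%. Cx3cr1, the fractalkine receptor, fell by 2.65 and by 3.0, Cd14 by 1.35 and by 1.33, and Aif1 by 0.62 and by 1.16. Trem2 had log2 fold changes of 0.85 and 0.43, called with siRNA 644, and Fcgr3 of 0.21 and 0.26, called with siRNA 878. The calls of Aif1 and Trem2 with siRNA 644 were lost in 8 and 4 of the 21 alternatives, and that of Fcgr3 in 14. Of 5 markers of other cell types tested, Tubb3 was called higher with siRNA 644 (1.02), and Pecam1 (-1.47), Cspg4 (-1.18) and Mbp (-0.91) lower with siRNA 878, with 2 to 56 counts per library. Tubb3 passed the low-count filter only through its siRNA 644 libraries (11, 13 and 11 counts), so its call says little, and it was lost in 10 of 21 alternatives. The calls of Pecam1, Cspg4 and Mbp were lost in 5, 6 and 15. Their part in the members' changes was not tested.

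Patterns over the 9 libraries were compared by the root mean square difference of log2 CPM, after taking off each gene's control mean. The size of the fold change stays in this distance, so near genes are mainly those with a like fold change. Among the members Trib3 was the nearest to Ddit3 (0.560), followed by Ppp1r15a (0.958) and Atf5 (1.04). Outside the set the nearest tested genes were Cox6a2, a subunit of cytochrome c oxidase (0.137), Gpr84, a receptor for medium-chain fatty acids (0.239), and Trim46 (0.307). Cox6a2 was at 10.6, 14.6 and 11.6 CPM in control, 217, 169 and 201 CPM with siRNA 644, and 136, 208 and 105 CPM with siRNA 878, and so shared the high replicate 2 of siRNA 878. For Atf4 the nearest members were Sesn2 (0.247), Cebpg (0.279) and Chac1 (0.285), and the nearest other genes Arpc5l, a subunit of the actin-nucleating Arp2/3 complex (0.0482), Gsto1, a glutathione transferase (0.0548), and Stx5a, a Golgi syntaxin (0.0591). Many genes rose by about the amount of Atf4, which ranked 494 and 479 by fold change.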

How the data were processed

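Titles gave each sample its group, 3 replicates in each. Per the labels' protocols, an mRNA kit and 2 µg of total RNA per sample were used. The authors deposited 1 table with estimated counts, FPKM, log2 fold changes and DESeq2 q-values. Within a tolerance of 1e-09, 37.4% of its nonzero estimated counts were fractional, those of Ddit3, Cebpg and Cebpb among them. Bowtie2 2.4.5, DESeq2 1.34.0 and mm39 are named in the submitters' processing notes. How reads were counted, by which annotation and with what strand setting, is not given in the sources used here. Of 16347 genes matched by gene ID, 73.7% sat at the same position in RefSeq of GRCm38.p6, so the table's build is unclear and its positions are not printed. The promoters are those of RefSeq in GRCm38.p6. Left out were 9 TPM columns, 9 of group averages and 3 of raw p-values.

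Rounded counts went through edgeR's filterByExpr (at least 10 counts in enough libraries and 15 in total) and TMM scaling. Groups were compared with the quasi-likelihood F-test of edgeR 4.0.16 (R 4.3.3), all 9 samples in 1 fit and no other term than group. An SE is the log2 fold change over the root of F. Biological variation came to a coefficient of 14.9%. Adjustment was by Benjamini-Hochberg over 11739 genes, with calls under 0.05. The test was checked on simulated data. The 21 alternatives were DESeq2 1.42.0; RLE scaling; unscaled library sizes; no filter; 1 CPM in 3 samples; fits of the compared groups alone; a replicate block; limma 3.58.1 on log2(FPKM + 1), filtered or not, and on log2(FPKM + 0.1); each library left out; and GC and length offsets with and without the block.

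Members and gene lists were chosen with earlier results of these data known. Ero1l was matched as Ero1a, Vldlr and Sesn3 were not analysed here, and Cth and Fgf21 did not pass the filter. Named outside the set were Nus1, the eIF2 kinases, the paralogs, up to 3 called genes per direction of each list with the largest change, and the 3 genes nearest in pattern to Ddit3 and to Atf4. Not every gene that qualified is reported here. Opposite-strand neighbours were added after their values were seen.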

Additional observations from a re-analysis of the deposited data

Results flagged for a closer look

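In the main test of the difference between the siRNAs, 4 genes of the lists that are not members were called. They were 2 of 37 other targets, 1 of 38 bZIP factor genes and 1 of 13 microglial markers, while 1.51% of all genes were called. The alternative settings were not run for these 4 in this comparison. Over all genes its calls fell from 177 to 5 with only the compared groups and to 14 with the replicate block. With siRNA 878 minus siRNA 644, edgeR gave Pycr1, an enzyme of proline synthesis and an ATF4 target, a log2 difference of -0.87 (SE 0.146, adjusted p = 0.0279), with 20.8 to 22.0 CPM with siRNA 644 and 9.81 to 13.7 CPM with siRNA 878. Herpud1 differed by -0.41 (SE 0.0736, edgeR adjusted p = 0.0323), with 323 to 338 CPM and 245 to 254 CPM. Fosl1 differed by -1.22 (SE 0.130, edgeR adjusted p = 0.00517), with 19.6 to 24.6 CPM and 8.83 to 11.1 CPM. The microglial integrin Itgam differed by -0.71 (SE 0.135, edgeR adjusted p = 0.0412), being called lower than control with siRNA 878 (log2 fold change -0.48) and not called with siRNA 644 (0.22). In all 4 genes the libraries of siRNA 878 lay below those of siRNA 644 without overlap, which held for 10.6% of all genes. Since these 4 were picked by their call on the same libraries, this adds no separate support.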

How the results depend on the processing

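Of 630 recomputed values of members, 613 kept their call and direction, 2 lost the call, 12 gained one and 3 turned direction, all 3 in values near 0. Outside the set the calls of Bcl2l11 and Fosl1 with siRNA 878 were lost in 3 and 4 alternatives, and those of Chac2 in 1 with siRNA 644 and 2 with siRNA 878. Over the members and the other genes rerun, 23 values with siRNA 644 against control gained a call and 59 lost one. For siRNA 878 against control these numbers were 7 and 53. Which genes outside the set gained a call is not reported here. Against control the count of members called was 10 with siRNA 644 under each alternative but the GC and length offsets (9, with or without the block), and 8 with siRNA 878, except 9 with DESeq2 and 9 without 878 replicate 2. Ddit3 ranged from 3.91 to 4.13 and from 3.44 to 3.85, Atf4 from 0.87 to 1.10 and from 0.86 to 1.04. Between the siRNAs 1 member, Atf3, was called with DESeq2, library sizes alone, the 1 CPM filter, each of the limma settings and the offsets with or without the block; leaving out a library gave 0 to 2.

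Over all genes, leaving out a library moved the calls from 3710 to between 2343 and 6004 (644 against control), from 3696 to between 2455 and 4824 (878 against control) and from 177 to between 12 and 2072 (878 against 644), each highest count being without 878 replicate 2. The calls between the siRNAs were 653 with DESeq2, 298 with library sizes alone, 5 with only the groups compared, 370, 323 and 353 with limma (pseudocounts 1 and 0.1, and no filter), 1134 with the offsets and 463 with offsets and block. The split between the siRNAs was 37 higher and 140 lower in the main test and 572 and 562 with the offsets, and the cause was not tested.

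Deviations of same-numbered libraries from their group means correlated at -0.69 to 0.55 over genes. Libraries with different numbers were not compared in this way, so the values cannot tell whether replicate numbers pair the samples. With the replicate block 10, 8 and 0 members were called, and over all genes 2853, 2886 and 14.

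Values near 0 turned direction. Eif2ak1 with siRNA 644 (0.00) was at -0.00 with DESeq2 and with no filter, at -0.04 with library sizes alone, at -0.05 in each limma setting and at -0.02 to 0.02 with a library left out. With a library left out, siRNA 878 against control gave -0.45 to 0.01 for Tubb3, -0.32 to 0.04 for Eif2s3x, -0.02 to 0.26 for Trib2 and -0.00 to 0.25 for Ppp1r15b, and siRNA 878 against 644 gave -0.16 to 0.02 for Atf4 and -0.37 to 0.08 for Atf5. Chac1 had the fewest counts of the members, 100 to 355 per library.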
